A study of Caenorhabditis elegans with 2 samples.

Results

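The cytoplasmic ribosomal protein genes of Caenorhabditis elegans were taken as all protein-coding genes of the Ensembl WBcel235 annotation whose symbols begin with rpl-, rps- or rla-. This gave 81 of the 19973 protein-coding genes on the 6 nuclear chromosomes, 50 for the large ribosomal subunit (rpl- and rla-) and 31 for the small subunit (rps-). Genes of the mitochondrial ribosome (mrpl- and mrps-) were kept apart. Binding of KLU-1, a zinc finger protein encoded by klu-1 (ZK337.2), had been mapped by ChIP-seq (sequencing of immunoprecipitated chromatin) in whole L4 larvae, grown for 47 h from starved, bleach-synchronised L1 larvae. The design held 1 group of 2 biological replicates, both of strain RW12326, which carries the allele st12326, a CRISPR insertion of TY1, EGFP and FLAG tags at klu-1. Sonicated chromatin was precipitated with an antibody against GFP. No untagged or input sample was analysed here, and whole animals mix all cell types, so a peak says nothing of the cells in which KLU-1 was bound.

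Each gene was given its strongest peak with a summit within 1000 bp of one of its transcript starts, from the authors' list that passed their reproducibility threshold on both replicates together (1043 peaks). Where that list held none, the strongest peak of the 128328 ranked peaks was taken. A gene with a summit in the first list is said below to have a passing peak. Peak strength is the signal column of the authors' lists, a value of their peak caller on a scale the sources leave unstated. Signals of the joint list and of each replicate's own list were set side by side without rescaling. The lists hold no read counts, so depth per sample is unknown. Intervals are 95% Wilson intervals over genes and cover counting error only.

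Ribosomal proteins and ribosomal RNA form the large subunit, where peptide bonds are made, and the small subunit, where the messenger RNA is decoded. Their genes are transcribed in almost all cells, and their output is tied to growth. Many worm messenger RNAs are trans-spliced to a leader, so an annotated start can lie downstream of the site where transcription begins.

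Summit windows of the strongest peaks show what the chromatin signal was centred on. The windows are 101 bp, read on the strand of the named gene, 5′ to 3′, in ce11 coordinates with the sequence from the RefSeq WBcel235 genome. Capitals mark ACCGTA or AAGTGTAT on either strand, a pair of words picked, after the windows and all counts had been examined, from the 8 words of 6 letters and the 6 of 8 letters that recurred most among the windows of passing peaks, with ties settled by fewer matches at other passing summits. The first 9 lines are from 9 of the 11 genes with the strongest passing peaks, in order of signal. The windows of the other two, rps-19 and rps-26, are not shown and hold neither word. The last line, rpl-12, is from the gene with the strongest peak that did not pass, also chosen after its value was seen.
rpl-35, chrIII:7854636-7854736 (plus strand): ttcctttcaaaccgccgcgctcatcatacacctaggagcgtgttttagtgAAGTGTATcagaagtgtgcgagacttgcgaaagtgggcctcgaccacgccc
rps-23, chrIV:12391274-12391374 (minus strand): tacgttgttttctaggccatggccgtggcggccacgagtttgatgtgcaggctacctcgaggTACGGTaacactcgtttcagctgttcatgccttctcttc
rpl-15, chrIV:654872-654972 (minus strand): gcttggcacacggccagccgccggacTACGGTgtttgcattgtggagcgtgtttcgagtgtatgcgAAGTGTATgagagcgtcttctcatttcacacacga
rpl-43, chrII:14154500-14154600 (plus strand): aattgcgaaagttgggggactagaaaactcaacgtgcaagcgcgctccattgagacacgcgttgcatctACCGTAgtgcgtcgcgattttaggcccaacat
rps-24, chrIV:385493-385593 (plus strand): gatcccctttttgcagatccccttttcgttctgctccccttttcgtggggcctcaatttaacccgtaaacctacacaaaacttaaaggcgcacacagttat
rpl-3, chrIII:3867522-3867622 (plus strand): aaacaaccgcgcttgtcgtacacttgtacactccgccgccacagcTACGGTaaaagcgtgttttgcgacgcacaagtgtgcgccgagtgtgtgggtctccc
rpl-20, chrIV:4750036-4750136 (minus strand): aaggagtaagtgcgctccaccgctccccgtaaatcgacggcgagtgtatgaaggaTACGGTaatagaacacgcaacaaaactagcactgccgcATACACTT
rpl-7A, chrIV:4390615-4390715 (minus strand): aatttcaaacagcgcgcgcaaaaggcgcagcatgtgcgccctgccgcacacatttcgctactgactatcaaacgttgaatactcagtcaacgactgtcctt
rps-1, chrIII:4475604-4475704 (plus strand): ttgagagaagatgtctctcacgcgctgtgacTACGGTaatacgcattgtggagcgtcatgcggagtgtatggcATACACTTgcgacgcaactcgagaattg
rpl-12, chrIV:13240267-13240367 (minus strand): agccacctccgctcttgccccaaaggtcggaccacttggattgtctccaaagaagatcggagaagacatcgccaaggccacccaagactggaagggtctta

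Passing peaks lay near 24 of the 81 ribosomal protein genes (29.6%, 20.8 to 40.3), against 3.64% of all protein-coding genes (727 of 19973). Among the 19892 protein-coding genes that are not ribosomal protein genes the count was 703 (3.53%, 3.29 to 3.8). These 703 include neighbours that share a passing peak with a ribosomal protein gene, such as K11H12.8 with rpl-15. The 24 genes had 23 distinct peaks, because rpl-41.1 and rpl-41.2 shared one. The subunits were alike in count: 15 of 50 large subunit genes had a passing peak (30%, 19.1 to 43.8) and 9 of 31 small subunit genes (29%, 16.1 to 46.6). These intervals overlap almost wholly, and they are too wide to show that the subunits did not differ.

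In each of the authors' other lists the count was lower, and the share of ribosomal protein genes stood above that of all protein-coding genes. In the conservative joint list 20 ribosomal protein genes had a summit within 1000 bp (24.7%), against 3.5% of all protein-coding genes. The genes lost there were rla-1, rpl-11.1, rpl-16 and rpl-23. Replicate 1 alone gave 14 (17.3%), against 2.23%, and replicate 2 alone gave 11 (13.6%), against 1.55%. Both replicate lists held a summit near 11 ribosomal protein genes (13.6%), against 1.29% of all protein-coding genes. No ribosomal protein gene entered through another list: all those found were among the 24. A shorter distance can add no gene by construction. Chromosome X carries 2 ribosomal protein genes, neither with a passing peak, and on the autosomes alone the shares were 30.4% (24 of 79) and 3.71% of the other genes.

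**Figure D1:**
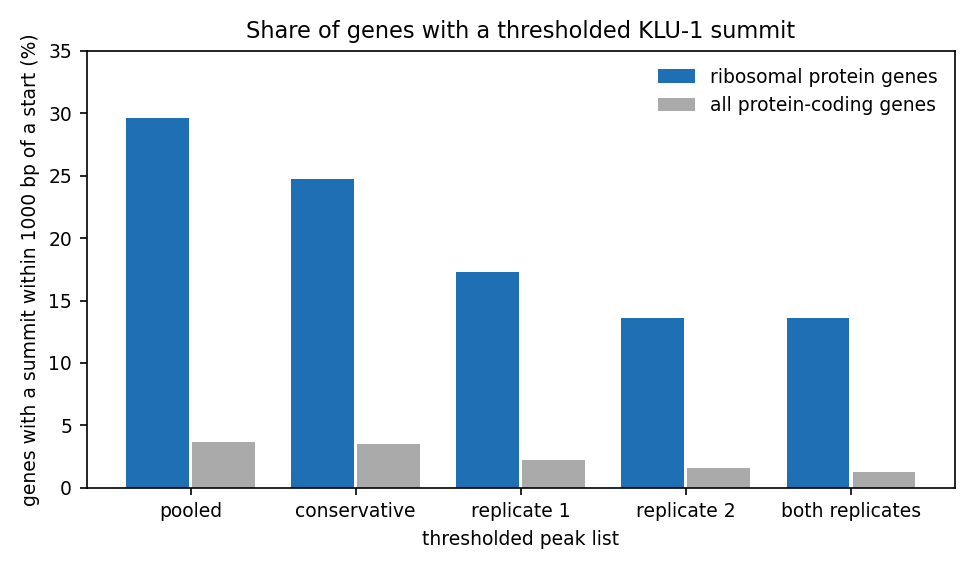
Share of genes (%) with a summit within 1000 bp of a transcript start, for ribosomal protein genes (blue, n = 81) and all protein-coding genes (grey, n = 19973), in the pooled, conservative and single-replicate thresholded lists and in both replicate lists. The blue bars run from 29.6% down to 13.6%, and the grey bars from 3.64% down to 1.29%.

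How closely a gene is tied to its peak depended on the rule. With a limit of 200 bp from the start, 4 ribosomal protein genes had a passing peak (4.94%), against 1.32% of all protein-coding genes. Where a gene counted only if its start was the nearest protein-coding start to the summit, 15 did (18.5%), against 2.79%. Another protein-coding start lay within 1000 bp of the summit for 17 of the 24 genes (70.8%, 50.8 to 85.1), and for 334 of the 703 other genes with a passing peak (47.5%). A divergent protein-coding start lay within 1000 bp upstream of 48 of the 81 ribosomal protein genes (59.3%, 48.4 to 69.3) and of 3610 of the 19892 other genes (18.1%, 17.6 to 18.7). Among genes with such a neighbour a passing peak was present at 13 of 48 ribosomal protein genes (27.1%) and 254 of 3610 others (7.04%). Among genes without one it was present at 11 of 33 ribosomal protein genes (33.3%) and 449 of 16282 others (2.76%). For genes with a divergent neighbour, the peak cannot be told apart from one that belongs to the neighbour.

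The large subunit gene with the strongest peak was rpl-35, whose protein sits at the exit of the polypeptide tunnel. Its summit lay 448 bp upstream of the start, at rank 26 of the ranked list, with no other protein-coding start within 1000 bp. The joint signal was 279, and the separate signals were 154 in replicate 1 and 115 in replicate 2. The peak of rpl-15, a protein of the large subunit core, had a signal of 252 (151 in replicate 1, 102 in replicate 2) and lay 346 bp upstream. The start of K11H12.8 on the other side was 468 bp from the same summit, so rpl-15 was the nearer gene. For rpl-43 the signal was 247 (148 in replicate 1, 94.3 in replicate 2), but its summit was 744 bp upstream of rpl-43 and 177 bp from the start of Y48B6A.1. The gene rpl-3 encodes the protein that reaches towards the peptidyl transferase centre, where peptide bonds form. Its peak had a signal of 239 (131 in replicate 1, 115 in replicate 2), with the summit 282 bp upstream and no other start nearby.

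Intermediate signals were found at 3 further large subunit genes. At rpl-20 the signal was 185 (90.8 in replicate 1, 95.2 in replicate 2), 308 bp upstream, with the start of Y17G9B.5 at 154 bp. At rpl-7A, whose yeast counterpart is needed to process ribosomal RNA, it was 161 (80.7 in replicate 1, 76.7 in replicate 2), 75 bp upstream. The divergent start of set-21 was 179 bp from the same summit, so rpl-7A was the nearer gene. The summit near rpl-27 lay 744 bp downstream of its start and 34 bp from that of egl-30, a G protein alpha subunit gene, so rpl-27 was not the nearest gene. Its signal was 120 (64.2 in replicate 1, 59 in replicate 2).

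The other 8 large subunit genes had signals under 100, a split chosen after the values were seen, and neither replicate's own thresholded list held their peaks. The peak shared by rpl-41.1 and rpl-41.2 had a signal of 79.8 (38.4 in replicate 1, 40.9 in replicate 2), 265 bp upstream of rpl-41.2 and 837 bp downstream of the start of rpl-41.1. For rpl-24.2 the signal was 76.3 (39.8 in replicate 1, 39.4 in replicate 2) and the summit, 163 bp upstream, fell in an intron of C03D6.1. At rpl-23 it was 64.3 (33.7 in replicate 1, 25.7 in replicate 2), 335 bp upstream. These values lie in the lower part of the range of the 23 peaks.

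Summits inside the gene itself were found at rpl-11.1, rla-1 and rpl-16, and none of these genes had a summit in the conservative joint list. The signal at rpl-11.1, whose protein joins RPL-5 and 5S RNA in a particle of the large subunit, was 60.3, and the replicates differed (13.6 in replicate 1, 46.4 in replicate 2). Its summit lay in the 3′ UTR exon, near the end of the gene. The distance of 211 bp downstream is from the nearer of its 2 annotated starts, which lies inside the gene. The acidic protein encoded by rla-1 belongs to the stalk that calls translation factors to the ribosome, and its summit was in the 5′ UTR exon 47 bp downstream, with a signal of 58 (21.1 in replicate 1, 36.2 in replicate 2). The signal at rpl-16 was 53.1 (26.2 in replicate 1, 24.7 in replicate 2) in a coding exon 204 bp downstream, the weakest of the 23. A peak of signal 54.6 (26.3 in replicate 1, 33.5 in replicate 2) lay between rpl-28 and the divergent mitochondrial ribosomal gene mrpl-49, 377 bp from rpl-28 and 142 bp from mrpl-49.

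**Figure D2:**
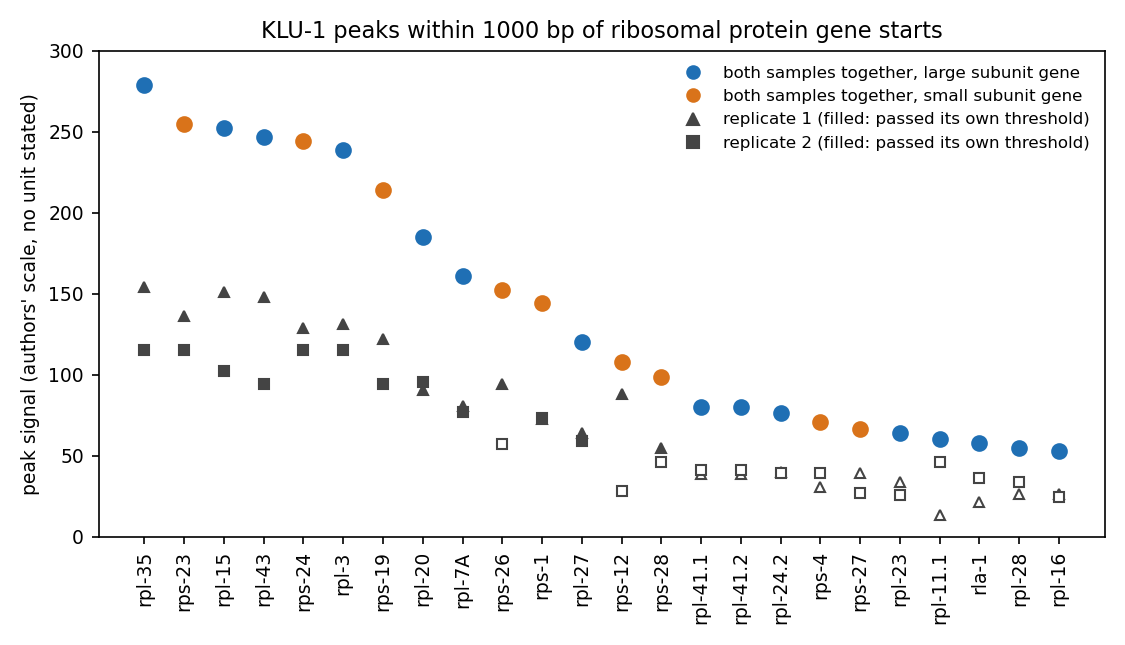
Peak signal (authors' scale, no unit stated) of the 24 ribosomal protein genes with a passing peak, in the joint list (large circles, blue for large and orange for small subunit genes) and in the ranked lists of replicate 1 (triangles) and replicate 2 (squares), filled where the peak also passed that replicate's own threshold. Joint signals run from 279 at rpl-35 to 53.1 at rpl-16, and filled symbols end at rps-28, with a signal of 98.4.

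Among small subunit genes, rps-23 had the strongest peak. Its protein lies at the decoding site. The signal was 255 (136 in replicate 1, 115 in replicate 2), and the summit lay 271 bp upstream of rps-23 and 263 bp from the divergent start of dpm-3, which serves protein glycosylation, nearly midway between the pair. The peak of rps-24 had a signal of 244 (129 in replicate 1, 115 in replicate 2), 344 bp upstream, with no other start within 1000 bp. At rps-19, whose human counterpart is mutated in Diamond-Blackfan anaemia, the signal was 214 (122 in replicate 1, 94.4 in replicate 2), 289 bp upstream of rps-19 and 156 bp from hsr-9. These 3 peaks were in both replicate lists.

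Of the other small subunit genes, rps-26 and rps-1 encode proteins of the platform, by which the messenger RNA leaves the small subunit. At rps-26 the signal was 152 (94.5 in replicate 1, 57.5 in replicate 2), 413 bp upstream. This was the only summit of the 23 with a gene for a tRNA, snRNA or snoRNA within 200 bp, the snoRNA gene F39B2.14, and the start of tmem-107 was 44 bp away. At rps-1 the signal was 144 (72.5 in replicate 1, 73 in replicate 2), 264 bp upstream, inside the non-coding RNA gene F56F3.10. The replicates were far apart at rps-12, which encodes a protein of the small subunit head, with 88.3 in replicate 1 and 27.9 in replicate 2 for a joint signal of 108, 197 bp upstream of rps-12 and 96 bp from ska-3. The peak of rps-28 had a signal of 98.4 (54.8 in replicate 1, 46.2 in replicate 2), 450 bp upstream. The peaks of rps-26, rps-12 and rps-28 were in the thresholded list of replicate 1 and not in that of replicate 2. Signals at rps-4 and rps-27 were 71 (30.9 in replicate 1, 39.1 in replicate 2), 285 bp upstream, and 66.7 (39.4 in replicate 1, 26.8 in replicate 2), 846 bp downstream of the start.

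Signals at ribosomal protein genes reached the upper part of the list. Over the 23 distinct peaks the median was 120 (quartiles 68.8 and 226), against 82.7 (66.3 and 114) over 524 other peaks, each the strongest passing peak within 1000 bp of the start of a protein-coding gene, which reached 649. Of all 1043 passing peaks 23 lay at ribosomal protein genes. They made up 2 of the 25 strongest, 7 of the 50 strongest, 8 of the 100 strongest and 14 of the 500 strongest. The share among the 500 strongest is near that over the whole list. A passing peak with a signal of at least 100 was near 13 ribosomal protein genes (16%), against 1.39% of all protein-coding genes. The median was 79.8 over the 15 large subunit genes (range 53.1 to 279) and 144 over the 9 small subunit genes (66.7 to 255). The ranges overlap over most of their length.

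Strength and presence in the replicate lists went together. All 13 peaks of genes with a signal of at least 100 were in at least 1 replicate's thresholded list and 11 were in both, whereas of the 11 genes with a lower signal 1 was in any replicate list and 0 in both. The joint list includes both replicates' data, so these measures are not independent. All 23 peaks had a counterpart in the ranked list of each replicate, overlapping by at least 50% of the shorter peak. Across the 23 peaks the replicate signals correlated with a Spearman rho of 0.82, against 0.58 across the 509 of the 524 other peaks that had a counterpart in both replicates. The points share the libraries and the authors' reproducibility threshold, which may itself depend on agreement between replicates. Joint signals also spread more widely over the 23 peaks (quartiles 68.8 and 226) than over the 524 others (66.3 and 114). Whether that spread or the higher signals have a part in the closer agreement was not tested. The replicate 1 signal divided by the replicate 2 signal had a median of 1.12 (0.294 at rpl-11.1 to 3.17 at rps-12), and the replicate summits lay a median of 8 bp apart, against 19 bp at the other peaks.

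Most passing summits stood upstream of the ribosomal protein gene. The strongest passing summit lay upstream at 18 of the 24 genes (75%, 55.1 to 88), and at 549 of the 703 other genes (78.1%). It lay 1 to 500 bp upstream at 17 ribosomal protein genes, which is 21% of all 81, against 2.07% of all protein-coding genes. A band of 150 to 450 bp upstream, chosen after the distances were seen, held 16 of the 24 (66.7%, 46.7 to 82) and 249 of the 703 (35.4%, 32 to 39). The intervals do not cover that choice, so these shares are no independent comparison. The 703 also include genes whose strongest passing summit is that of a ribosomal protein gene, such as K11H12.8 with rpl-15. The median summit position was -276.5 bp (quartiles -344 and -44.5) at ribosomal protein genes and -195 bp (-440 and -30) at the others, where negative values are upstream. Large subunit genes had a median of -265 bp and small subunit genes one of -285 bp, a difference smaller than either interquartile range. Of the 13 genes with a signal of at least 100, 12 had their summit upstream, and of the 11 weaker ones 6 had.

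**Figure D3:**
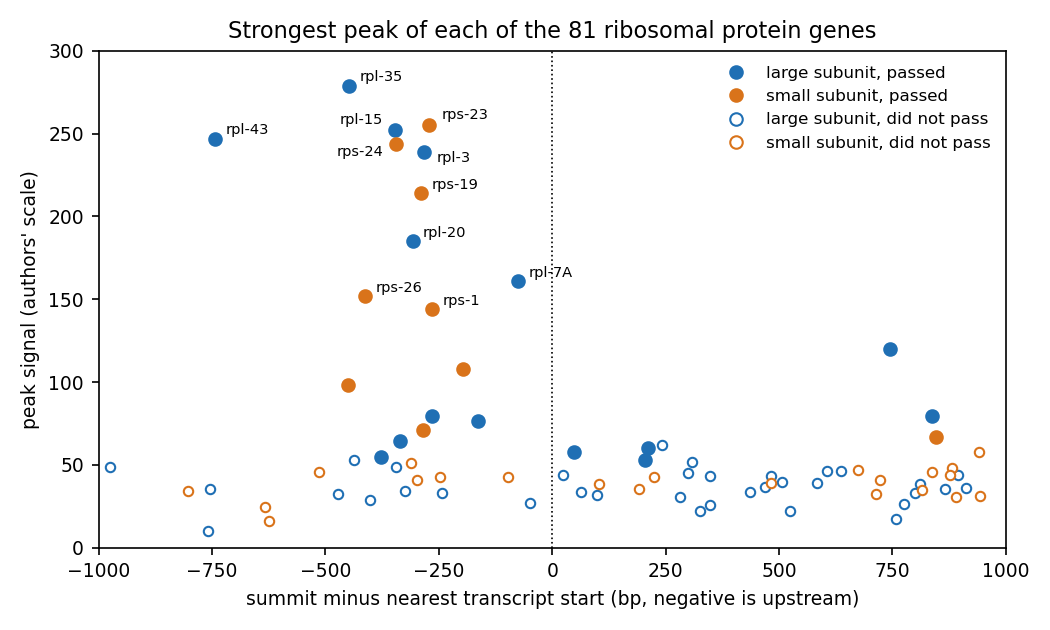
Peak signal (authors' scale) against the position of the summit relative to the nearest transcript start (bp, negative is upstream) for the 81 ribosomal protein genes, blue for large and orange for small subunit genes, filled where the peak passed and open where it did not. Signals above 140 lie at or upstream of -75 bp, and the open symbols stay at or below 62.1.

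**Figure D4:**
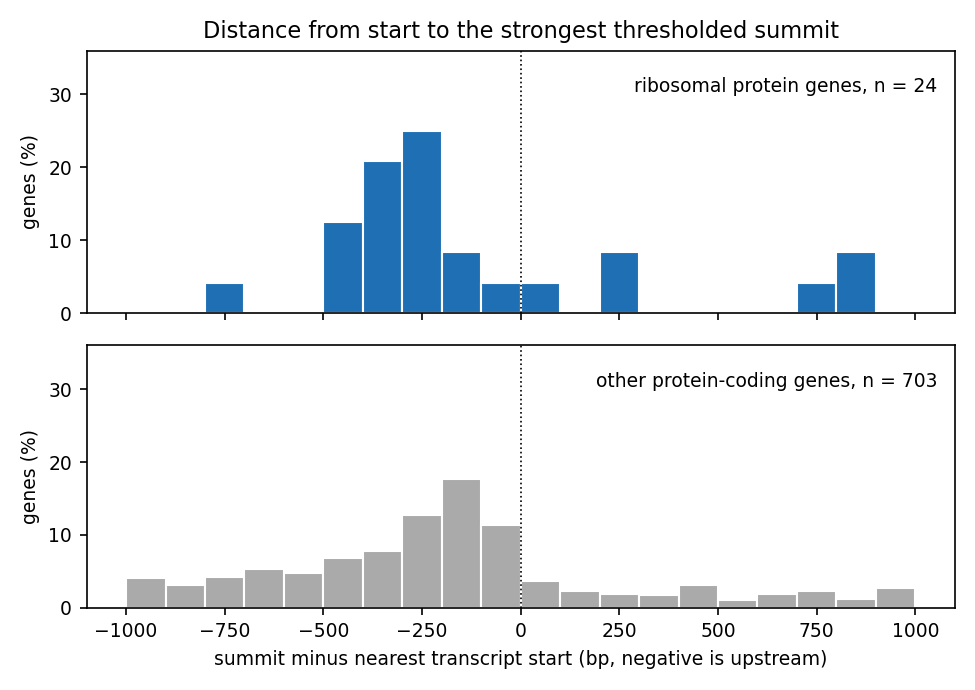
Position of the strongest passing summit relative to the nearest transcript start (bp, negative is upstream), as a percentage of genes in bins of 100 bp, for the 24 ribosomal protein genes (top, blue) and the 703 other protein-coding genes (bottom, grey). The blue bars are highest within the stretch of 150 to 450 bp upstream, which was chosen after the distances were seen. The grey bars are highest nearer to the start, around their median of -195 bp.

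Passing summits were mostly intergenic, and the strongest summits that did not pass were mostly in coding exons. Summits were intergenic at 19 of the 24 ribosomal protein genes with a passing peak and in a coding exon at 1 (4.17%). At the 57 without, the strongest ranked summit was in a coding exon at 32 (56.1%, 43.3 to 68.2) and intergenic at 14 (24.6%). Among other protein-coding genes the coding exon share was 6.97% of 703 with a passing peak and 40.2% of 17781 without one that had a ranked summit within 1000 bp. GC content in the 101 bp around the summit had a median of 52.5% at the 24 genes, 43.6% at the 57, and 49.5% at the 524 other peaks. Whether base composition has a part in these differences was not tested. A divergent neighbour was present at 13 of the 24 genes (54.2%) and 35 of the 57 (61.4%). A tRNA, snRNA or snoRNA gene lay inside 5 of the 24 (20.8%) and 8 of the 57 (14%).

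The 57 genes without a passing peak all had a ranked summit within 1000 bp. So did 17781 of the 19189 other protein-coding genes without a passing peak (92.7%). Each of the 81 ribosomal protein genes had 2 to 6 such summits. The strongest ranked peaks of the 57 genes had a median signal of 38.4 (10.4 to 62.1), against 30 over the 17781 other genes. Of the 57, 47 were above that median. Most of these summits were downstream of the start: 18 of 57 lay upstream (31.6%) and 8 in the band of 150 to 450 bp (14%), against 46% and 14% at the other genes without a passing peak. The median signal was 35.7 over the 35 large subunit genes and 40.8 over the 22 small subunit genes.

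The strongest peaks that did not pass were at rpl-12, rps-14, rpl-1, rpl-32 and rps-0. The signal was 62.1 at rpl-12, a protein of the stalk base, in a coding exon 243 bp downstream of the start (30 in replicate 1, 25.8 in replicate 2). At rps-14, a platform protein, it was 57.8 (20.6 in replicate 1, 37 in replicate 2), 941 bp downstream of the start, in a pseudogene. At rps-0, another platform protein, it was 51.2 (30.3 in replicate 1, 26.6 in replicate 2), intergenic and 311 bp upstream. At rpl-1 and rpl-32 the signals were 53 and 51.8. The threshold fell between rpl-16, with a −log10 of the irreproducible discovery rate of 2.00 and a signal of 53.1, and rps-0, with 1.76 and 51.2. The signals of 2 of the 57 genes, rpl-12 and rps-14, were above that of rpl-16, so strength alone did not decide which peak passed.

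At the low end the signals of rpl-17, rps-18, rpl-36.A, rpl-10 and rpl-5 were 10.4, 16.3, 17.6, 22.1 and 22.1. RPL-17 lies at the polypeptide tunnel, RPL-10 close to the tRNAs of the large subunit, and RPL-5 binds 5S RNA. None of these 5 peaks had a matched peak in both replicate lists of ranked peaks. For rpl-36.A it was in neither.

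Genes of related symbols were alike in 3 of 6 pairs. In the pairs named by number, rpl-11.1 had a passing peak and rpl-11.2 did not (ranked signal 43.1), and rpl-24.2 had one and rpl-24.1 did not (32). Neither rpl-25.1 (49) nor rpl-25.2 (33.8) had one, and rpl-41.1 and rpl-41.2 shared one. By letter, rpl-7A had a passing peak and rpl-7 did not (43.8), while rpl-36 (39.9) and rpl-36.A (17.6) had none. The pairs were formed by symbol, and how alike their sequences are was not tested.

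Grouped by place in the ribosome, no group held passing peaks at most of its genes. Exit tunnel genes had 1 of 7 (rpl-35), genes of the 5S particle 1 of 3 (rpl-11.1), the stalk and its base 1 of 4 (rla-1) and genes near the peptidyl transferase centre 1 of 3 (rpl-3). In the small subunit the decoding site had 1 of 2 (rps-23), the platform and messenger RNA exit 3 of 6 (rps-1, rps-26 and rps-27), the head 3 of 11 (rps-12, rps-19 and rps-28) and the messenger RNA entry 0 of 3. The gene of RPS-6, a substrate of S6 kinase, had none, with a ranked signal of 45.6. Groups of this size do not allow any of them to be set apart from the 29.6% of all 81.

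Among other genes of translation, the shares with a passing peak lay between those of ribosomal protein genes and of all protein-coding genes, except for the synthetases. Translation factor genes had 6 of 40 (15%), mitochondrial ribosomal genes 7 of 70 (10%), ribosome biogenesis genes 3 of the 33 found of 36 listed (9.09%) and aminoacyl-tRNA synthetase genes 1 of 32 (3.12%), against 3.64% of all protein-coding genes. The strongest translation factor peak was at eif-3.B, a subunit of initiation factor eIF3, with a signal of 241 (140 in replicate 1, 101 in replicate 2), 245 bp upstream. It was followed by eef-2, which moves the ribosome along, at 95.1 (41.8 in replicate 1, 48.7 in replicate 2), and by iff-2, the gene of a factor of the eIF5A family, at 89.6 (54.4 in replicate 1, 34.5 in replicate 2). Their summits lay 12 and 41 bp upstream, and those of the other 3 genes, eif-3.E, eif-3.C and eif-2alpha, 213, 237 and 562 bp upstream.

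Mitochondrial ribosomal genes gave signals of 181 at mrps-35 (98.6 in replicate 1, 74.8 in replicate 2), 120 at mrpl-18 (54.5 in replicate 1, 64.7 in replicate 2) and 92.8 at mrpl-23 (47.7 in replicate 1, 45.8 in replicate 2). Their summits lay 110, 238 and 980 bp upstream, the last near the edge of the 1000 bp window. Those of mrpl-28, mrpl-12 and mrpl-15 lay 100, 537 and 635 bp upstream. The peak at mrpl-49, counted here too, is the one shared with rpl-28. Among biogenesis genes, nol-56, which encodes a core protein of the particles that methylate ribosomal RNA, had a signal of 106 (39.1 in replicate 1, 65.2 in replicate 2), 281 bp upstream. The signals were 97 at pro-1 (38.9 in replicate 1, 51.5 in replicate 2) and 63.9 at ruvb-1 (31.5 in replicate 1, 28.9 in replicate 2). The synthetase gene was ears-2, with 119 (57.9 in replicate 1, 61.5 in replicate 2), 23 bp upstream. None of these peaks other than that of mrpl-49 lay within 1000 bp of a ribosomal protein gene start.

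The words in capitals in the sequences above recurred at the strongest of these summits. ACCGTA, counted on both strands as ACCGTA or TACGGT, was in 7 of the 23 windows of 101 bp (30.4%), those of rpl-15, rpl-20, rpl-27, rpl-3, rpl-43, rps-1 and rps-23, and all 7 belong to the 13 windows with a signal of at least 100. It was in 5.59% of 555 windows, one for every other passing summit within 1000 bp of a protein-coding start and so more than the 524 strongest per gene, and in 3.04% of 53107 windows at ranked summits that did not pass. AAGTGTAT was in 4 of the 23 (17.4%), those of rpl-15, rpl-20, rpl-35 and rps-1, in 0 of the 555 and in 0.401% of the 53107. Of the 13 windows with a signal of at least 100, those of rps-24, rps-19, rpl-7A, rps-26 and rps-12 (5 of 13) held neither word, and nor did any window with a lower signal or that of rpl-12. Other recurring words were as common or commoner: AGCGCG was in 8 of the 23 windows, against 9.37% of the 555, TTCAAA in 8, against 19.6%, and the 5 other listed words of 8 letters in 4 each. Both capitalised words were picked because they recurred in these 23 windows, and ties between words were settled by fewer matches in the 555. Their counts in the 23 and in the 555 therefore both describe the choice and are no evidence of a site.

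The 500 bp upstream of the start gave another order. ACCGTA occurred there at 29.2% of the 24 genes with a passing peak, at 50.9% of the 57 without and at 13.8% of the 19892 other protein-coding genes. AAGTGTAT occurred at 4 of the 24 (16.7%), at 0 of the 57 and at 2.37% of the other genes. These 4 were rpl-15, rpl-20, rpl-35 and rps-1, whose summit windows held the word and lie within this stretch. The same matches were therefore counted again. Both words had been picked from the windows of the 24 genes, so these shares are no independent comparison of genes with and without a passing peak.

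Words set from outside these windows were at or below their level at other passing peaks, apart from GGGCG and the splice acceptor word. GAGAG was in 5 of 23 windows (21.7%), against 33.9% at other passing summits near protein-coding starts and 15.2% at summits that did not pass. GTGGG, part of the site of EGR-type zinc finger proteins, was in 3 (13%), against 21.3% and 9.23%, and CACCC, known from Krüppel-like factors, in 1 (4.35%), against 12.8% and 7.82%. GGGCG was in 4 (17.4%), against 16.8% and 6.24%. The E-box CACGTG was in 0, against 1.8% and 2.17%, the GATA word TGATAA in 1, against 5.77% and 8.46%, and the splice acceptor word TTTCAG in 2 (8.7%), against 5.41% and 19.2%. At 23 windows a difference of 1 window moves these shares by 4.35 percentage points. All words were counted on both strands, and a match describes letters in a window, not a bound site.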

How the data were processed

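Peaks came from the authors' deposited lists on assembly ce11, called on each replicate and on both together, per the deposited descriptions. No aligner, caller or version is given in the sources used here. Each deposited list holds a signal per peak, and the authors' ranked lists add the −log10 of the irreproducible discovery rate, for which the threshold was 2 (a rate of 0.01). The 8 further columns in each of the 2 pooled ranked lists have no sample name and stayed unused. Depth per sample is unknown.

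Ensembl release 115 gave genes and starts, and RefSeq WBcel235 the sequence. Python 3.11.15 computed distances, overlaps, word counts and Wilson 95% intervals, and the assignment of peaks to genes was tested on simulated data. Genes are not replicates, so no p-value was computed. Named were all ribosomal protein genes with a passing peak, the 5 strongest and 5 weakest without one, pairs of related symbols (ending in a number after a point, or in A), and the 3 strongest genes of each other list. The ribosomal protein genes and the lists were chosen with earlier results of these data known. Alternatives were other distances, lists, gene assignments and starts, each replicate alone, and removal of summits near small RNA genes.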

Additional observations from a re-analysis of the deposited data

How the results depend on the processing

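Of 35 alternative values, 15 stayed close to the main one (within 1.5 times for counts, within the SD of the replicate lists for the others) and 20 moved. The count of 24 ribosomal protein genes was 20 within 500 bp and in the conservative list, 24 with all ranked peaks past the threshold and 23 without summits near small RNA genes (rps-26 was lost). It was 4 within 200 bp (3 large and 1 small subunit genes), 15 with the nearest start (10 large, 5 small) and 11 to 14 without replicate 1 or 2 (large 7 to 7, small 4 to 7). The median position of -276.5 bp was -283.5 bp within 500 bp and in the conservative list and -288 to -287 bp with a replicate left out. The SD for this median comes from the values of -288 and -287 bp alone, so even these small shifts counted as moved. The median signal of 114 was 126 within 500 bp, 148 in the conservative list and 95.2 to 108 in single replicates, whose scales are separate. The genome-wide 3.64% was 2.58% within 500 bp and 1.55 to 2.23% with a replicate left out. The causes were not tested. All genes found under each alternative were among the 24. This was fixed in advance where an alternative only narrows the rule on the same list, and could have failed only for the other lists. No paired analysis was possible because the design has 1 group. With 2 replicates and no read depth, no error over animals can be given for a gene's peak.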
